A study of Mus musculus with 12 samples.

Results

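Hspa12a, Grip2, Zscan18, Midn, Spsb1 and C2cd4b are 6 of the 18530 genes measured in a study of dystrophic mouse hearts. They were picked because the difference in their transcript level between PB1046 and saline was not the same in mdx:Utrn+/- mice and in mdx mice. The values that chose them are the ones described here, so the PB1046 responses, the difference between those responses and the genotype differences within a treatment are given as measurements with no test. The genotype difference averaged over both treatments is a separate contrast, and it is the one that was tested. It shares its estimate of spread with the contrast used for picking. All 6 genes passed the filter of at least 1 TPM in at least 3 libraries, although Zscan18 reached that level in only 8 libraries and C2cd4b in 7. TPM is a transcript level corrected for transcript length and sequencing depth.

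Poly-A RNA came from cardiomyocytes isolated from the heart and kept as frozen pellets. There were 4 groups of 3 libraries: mdx:Utrn+/- with PB1046, mdx:Utrn+/- with saline, mdx with PB1046 and mdx with saline. Every mouse carried the mdx allele, which removes dystrophin, and no group without it is used here. The mdx:Utrn+/- mice also lacked one allele of Utrn, which encodes utrophin, a relative of dystrophin that takes over part of its role at the muscle membrane. Dosing with PB1046 or saline, on alternate days, began at 4 weeks of age and ended at 12 weeks, and the hearts came from animals of 14 weeks. Doses of 0.75 and 1.5 mg/kg appear in the protocol, and the PB1046 libraries are titled as high dose. The labels give no sex and do not say whether each library is a mouse of its own, so p-values measure the spread between these libraries.

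PB1046 is a long-acting analog of vasoactive intestinal peptide. That peptide binds Gs-coupled receptors, raises cAMP and, through protein kinase A, activates the transcription factor CREB, which binds the cAMP response element (CRE) in promoters. CREB and NF-kB signaling were what the series set out to examine. The 6 genes do not form a pathway. Hspa12a encodes an atypical member of the HSP70 chaperone family. Grip2 encodes a scaffold of PDZ domains that binds AMPA-type glutamate receptors in neurons. Zscan18 encodes a zinc finger protein with a SCAN domain. Midn encodes midnolin, which carries nuclear proteins, among them immediate early transcription factors, to the proteasome. Spsb1 encodes the substrate adaptor of a Cullin E3 ubiquitin ligase that targets inducible nitric oxide synthase. C2cd4b encodes a nuclear protein that inflammatory cytokines induce in human endothelial cells.

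The promoter windows of Zscan18 and Midn are shown because the series is about CREB and these windows hold the letters of a CRE or of its core. The sequences are from RefSeq on GRCm38.p6, the assembly that mm10 names, and each covers the 250 bases before a start site on the strand of the gene. Capitals mark a CRE (TGACGTCA), a CRE core (TGACG or its reverse complement CGTCA) or an E-box (CACGTG). The first Zscan18 window is chr7:12803639-12803888 on the minus strand, the second is chr7:12780672-12780921 on the minus strand, and the Midn window is chr10:80148022-80148271 on the plus strand.
Zscan18 upstream window: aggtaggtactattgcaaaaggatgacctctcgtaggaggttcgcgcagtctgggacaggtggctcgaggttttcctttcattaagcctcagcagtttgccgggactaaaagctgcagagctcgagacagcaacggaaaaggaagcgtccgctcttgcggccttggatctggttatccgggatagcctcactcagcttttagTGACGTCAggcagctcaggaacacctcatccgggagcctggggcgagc
Zscan18 downstream window: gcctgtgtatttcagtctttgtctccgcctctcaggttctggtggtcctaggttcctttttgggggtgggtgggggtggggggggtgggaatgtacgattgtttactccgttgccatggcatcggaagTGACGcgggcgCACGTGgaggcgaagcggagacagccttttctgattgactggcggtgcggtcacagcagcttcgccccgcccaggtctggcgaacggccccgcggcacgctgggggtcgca
Midn window: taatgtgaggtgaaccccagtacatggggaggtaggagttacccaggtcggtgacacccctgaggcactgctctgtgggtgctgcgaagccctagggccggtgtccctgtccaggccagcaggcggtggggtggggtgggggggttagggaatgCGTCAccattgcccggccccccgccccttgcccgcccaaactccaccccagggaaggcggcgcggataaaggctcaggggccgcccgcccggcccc

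In the first Zscan18 window the CRE begins at position -48 from the start site. A full CRE occurred in 1.55% of the 32851 promoter windows of the table. The second Zscan18 window has a CRE core at -122 and an E-box at -111. The table gives a further Zscan18 start a single base away, whose window holds the same letters. In the Midn window the core begins at -96, and another Midn start has an E-box at -185. CRE cores occurred in 17.8% and E-boxes in 6.02% of all windows. The distal Hspa12a start site has a CRE core at -229, whereas its proximal window and those of Grip2, Spsb1 and C2cd4b held none of the letters searched. The search, on both strands, also took an NF-kB site (GGGACTTTC, in 0.289% of windows) and a heat shock element pair (GAANNTTC, in 6.69%), and no window of the 6 genes held either. A full CRE contains a core on each strand, so these matches overlap. The Zscan18 start in the deposited table, 12775658, lies 5013 bases from the nearest RefSeq start, that of the second window. It lies 27980 bases from the start of the first window, which holds the full CRE. The windows may therefore not be the promoter of the transcript that was counted. Matched letters describe the window and do not show that a factor binds there.

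Utrn, the gene whose copy number separates the genotypes, averaged 6.84 ± 2.82 TPM in mdx:Utrn+/- PB1046 libraries and 13.8 ± 6.71 TPM in mdx PB1046 libraries (SD, n = 3 each). Under saline it averaged 4.97 ± 1.51 TPM in mdx:Utrn+/- and 9.82 ± 1.29 TPM in mdx. The genotypes did not overlap under saline, and they overlapped under PB1046, where mdx:Utrn+/- ran from 4.39 to 9.92 TPM and mdx from 6.11 to 18.3 TPM. The 12 cardiomyocyte markers summed to between 102907 and 142201 TPM in the 12 libraries, and none of them was at 0. With PB1046, 7 of these 12 were lower in mdx:Utrn+/- (median -0.06) and 11 of 12 in mdx (median -0.33). Their response was higher in mdx:Utrn+/- than in mdx for 9 of 12 (median 0.21), and averaged over treatments 12 of 12 were higher in mdx:Utrn+/- (median 0.28), with none past the limma threshold. Their part in the values of the 6 genes was not tested. Libraries held between 7234100 and 25458194 reads. The mdx PB1046 libraries held 11468009 to 14182350 reads and the mdx saline libraries 18162940 to 25458194, so these groups differ in depth without overlap. The unprocessed ribosomal RNA Rn45s was uneven, with 11570 to 25861 TPM in mdx PB1046 libraries and 1039 to 10403 TPM in mdx saline libraries. In mdx:Utrn+/- it ran from 1178 to 17798 TPM with PB1046 and from 1708 to 42106 TPM with saline. The library with 42106 TPM, mdx:Utrn+/- saline replicate 2, was also the one with 7234100 reads, the fewest. In bulk RNA, fewer cells of a type and less RNA per cell cannot be told apart.

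Taken over all libraries, 4 genes were lower on average with PB1046 in mdx and higher with it in mdx:Utrn+/-, namely Hspa12a, Grip2, Zscan18 and C2cd4b. The other two, Midn and Spsb1, did the opposite. In mdx:Utrn+/-, the PB1046 and saline libraries did not overlap for 5 of the 6 genes, against 5.75% of the 12798 genes tested. In mdx they did not overlap for 4 of the 6, against 8.74% of genes. Nothing is read from these shares, because the genes were chosen on this contrast. These counts use TPM divided by a scaling factor per library.

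**Figure D1:**
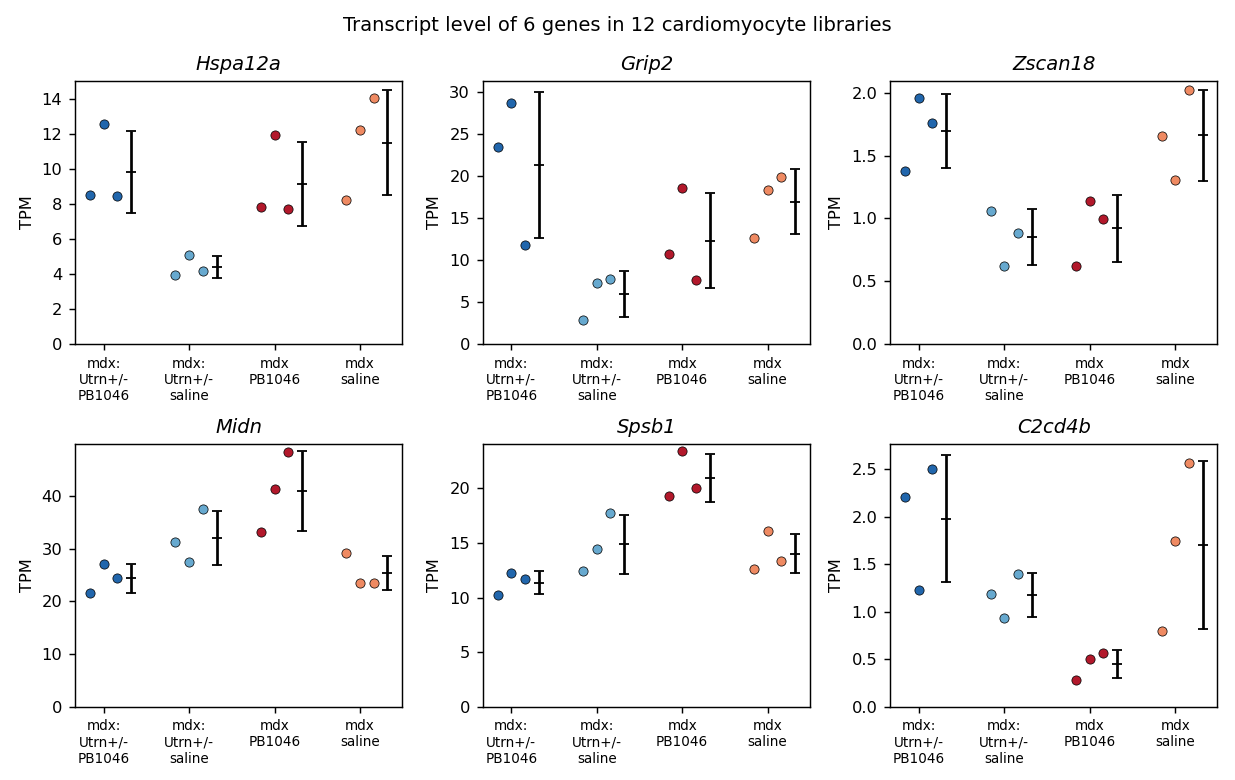
TPM (y axis, linear, from 0) of each gene in the 12 libraries, with 1 point per library and a bar for the mean ± SD of the 3 libraries of a group. The mdx:Utrn+/- saline libraries are lowest for Hspa12a, between 3.93 and 5.08 TPM, and the mdx PB1046 libraries are highest for Spsb1, between 19.3 and 23.4 TPM.

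Hspa12a lies at chr19:58795751-58860984 on the minus strand (ENSMUSG00000025092.7, mm10). In mdx:Utrn+/- it had 8.53, 12.6 and 8.45 TPM in the PB1046 libraries, against 3.93, 5.08 and 4.16 TPM in the saline libraries. Every PB1046 library was above every saline library in that genotype. The means were 9.85 ± 2.35 TPM with PB1046 and 4.39 ± 0.608 TPM with saline (SD, n = 3 each), a ratio of 2.24. In mdx, Hspa12a had 7.83, 11.9 and 7.68 TPM in PB1046 libraries, against 8.22, 12.2 and 14.1 TPM in saline libraries. Those groups overlapped, with means of 9.15 ± 2.41 TPM with PB1046 and 11.5 ± 2.99 TPM with saline (SD, n = 3 each). On TPM the 3 mdx:Utrn+/- saline libraries were thus the lowest of all 12, while the other 9 lay between 7.68 and 14.1 TPM. After scaling this gap nearly closed. On log2(scaled TPM + 1), mdx:Utrn+/- saline replicate 2 had 2.766 and mdx PB1046 replicate 3 had 2.769. Between 117 and 967 reads stood behind each value.

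Grip2 lies at chr6:91761510-91807393 on the minus strand (ENSMUSG00000030098.15). In mdx:Utrn+/- it had 23.5, 28.6 and 11.7 TPM in the PB1046 libraries, against 2.81, 7.27 and 7.68 TPM in the saline libraries. The groups did not overlap, and the lowest PB1046 library, replicate 3, stood well below the other two. The means were 21.3 ± 8.64 TPM with PB1046 and 5.92 ± 2.70 TPM with saline (SD, n = 3 each), a ratio of 3.59. In mdx the scaffold gene had 10.7, 18.5 and 7.57 TPM in PB1046 libraries, against 12.6, 18.3 and 19.9 TPM in saline libraries. There the groups overlapped, with means of 12.3 ± 5.64 TPM with PB1046 and 16.9 ± 3.85 TPM with saline (SD, n = 3 each). As for Hspa12a, the mdx:Utrn+/- saline mean was the lowest of the 4 groups.

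Zscan18 is listed at chr7:12768092-12775658 on the minus strand (ENSMUSG00000070822.5), downstream of the windows shown above. It was scarce, with 9 to 91 reads per library. In mdx:Utrn+/- it had 1.38, 1.96 and 1.76 TPM in PB1046 libraries, against 1.06, 0.618 and 0.883 TPM in saline libraries. In mdx it had 0.624, 1.14 and 0.998 TPM in PB1046 libraries, against 1.66, 1.30 and 2.02 TPM in saline libraries. Neither pair overlapped, so this zinc finger gene separated the treatments in both genotypes, in opposite directions. The mean with PB1046 was 1.99 times the saline mean in mdx:Utrn+/- and 0.554 times it in mdx.

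Midn lies at chr10:80148290-80158367 on the plus strand (ENSMUSG00000035621.13), and 408 to 2180 reads per library stood behind it. The mdx:Utrn+/- values were 21.6, 27.2 and 24.5 TPM in PB1046 libraries, against 31.4, 27.4 and 37.6 TPM in saline libraries. The groups did not overlap, but the gap was narrow, since the highest PB1046 library had 27.2 TPM and the lowest saline library 27.4 TPM. In mdx it had 33.2, 41.3 and 48.5 TPM in PB1046 libraries, against 29.2, 23.6 and 23.6 TPM in saline libraries. All mdx PB1046 libraries were above all mdx saline libraries. The group means were 24.4 ± 2.77 TPM with PB1046 and 32.1 ± 5.15 TPM with saline in mdx:Utrn+/-, and 40.98 ± 7.66 TPM with PB1046 and 25.5 ± 3.26 TPM with saline in mdx (SD, n = 3 each).

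Spsb1 lies at chr4:149896284-149955006 on the minus strand (ENSMUSG00000039911.13), with 177 to 847 reads per library. The mdx:Utrn+/- values were 10.2, 12.2 and 11.7 TPM in PB1046 libraries, against 12.4, 14.4 and 17.7 TPM in saline libraries. In mdx it had 19.3, 23.4 and 20.07 TPM in PB1046 libraries, against 12.7, 16.1 and 13.3 TPM in saline libraries. Neither pair overlapped, and on TPM the smaller gap was in mdx:Utrn+/-, between 12.2 and 12.4 TPM. On log2(scaled TPM + 1) the smaller gap was in mdx, between saline replicate 2 with 4.013 and PB1046 replicate 3 with 4.017. On TPM the mdx PB1046 libraries were the highest of all 12. After scaling, mdx PB1046 replicate 3 lay below mdx:Utrn+/- saline replicates 2 and 3, at 4.13 and 4.38. The mean with PB1046 was 0.765 times the saline mean in mdx:Utrn+/- and 1.49 times it in mdx.

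C2cd4b lies at chr9:67759437-67760933 on the plus strand (ENSMUSG00000091956.2). It was the scarcest member in reads. The mdx:Utrn+/- values were 2.21, 1.22 and 2.51 TPM in PB1046 libraries, against 1.19, 0.937 and 1.40 TPM in saline libraries. Those groups overlapped, since on TPM replicate 2 with PB1046 was below replicate 3 with saline. On log2(scaled TPM + 1) replicate 2 with PB1046 had 1.026, below every saline library of that genotype, the lowest of which had 1.049. In mdx it had 0.284, 0.497 and 0.563 TPM in PB1046 libraries, against 0.795, 1.74 and 2.57 TPM in saline libraries. These groups did not overlap, and the PB1046 mean was 0.263 times the saline mean. The mdx PB1046 libraries held 3, 4 and 6 reads of the gene, which limits the precision of that ratio. An exon of the lincRNA M5C1000I18Rik on the other strand overlaps 547 bases of C2cd4b, and the strand setting of the authors' counter is not given in the sources used here. The other overlaps were 166 bases of Hspa12a with Eno4 and 103 bases of Spsb1 with Gm13070, each on the opposite strand.

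On the scale log2(scaled TPM + 1), which understates changes of scarce genes, the responses of the 6 genes had opposite signs in the genotypes. For Grip2 the PB1046 response was 1.57 ± 0.40 in mdx:Utrn+/- and -0.66 ± 0.40 in mdx (log2, SE, 12 libraries). For Hspa12a it was 0.87 ± 0.22 in mdx:Utrn+/- and -0.46 ± 0.22 in mdx. For both genes the response in mdx:Utrn+/- was the larger in size. Without mdx PB1046 replicate 3 the response in mdx was -0.32 for Grip2 and -0.29 for Hspa12a, and without scaling factors that of Hspa12a was -0.30. Leaving out the 3 lowest library numbers gave Grip2 a response of 0.99 in mdx:Utrn+/-. C2cd4b was the other way round, with 0.37 ± 0.28 in mdx:Utrn+/- and -0.90 ± 0.28 in mdx. Its response in mdx:Utrn+/- was 0.22 without PB1046 replicate 3 and 0.66 without PB1046 replicate 2 of that genotype, and limma-voom gave -1.85 in mdx. Zscan18 responded by 0.48 ± 0.19 in mdx:Utrn+/- and -0.56 ± 0.19 in mdx, against 0.80 in mdx:Utrn+/- and -1.07 in mdx by limma-voom. Midn responded by -0.52 ± 0.18 in mdx:Utrn+/- and 0.47 ± 0.18 in mdx, and Spsb1 by -0.49 ± 0.18 in mdx:Utrn+/- and 0.37 ± 0.18 in mdx. The last 3 genes had responses of similar size in the 2 genotypes, on opposite sides of 0.

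**Figure D2:**
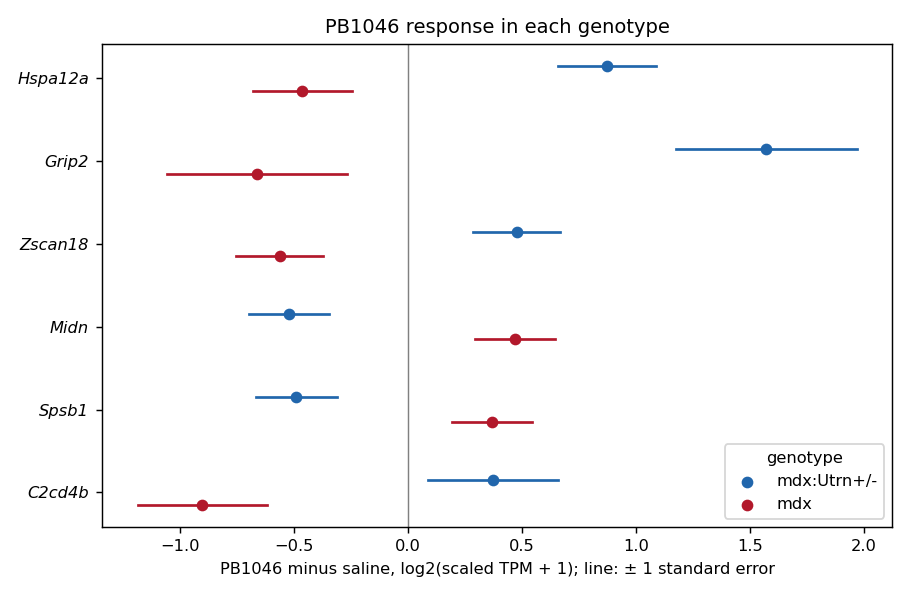
PB1046 minus saline (x axis, log2 of scaled TPM + 1) for each gene in mdx:Utrn+/- and in mdx, with lines of ± 1 standard error from the fit to all 12 libraries. The dots of the genotypes lie on opposite sides of 0 for every gene, from -0.90 for C2cd4b in mdx to 1.57 for Grip2 in mdx:Utrn+/-.

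The response difference, mdx:Utrn+/- minus mdx, was 2.24 ± 0.56 for Grip2, 1.34 ± 0.30 for Hspa12a, 1.28 ± 0.40 for C2cd4b and 1.04 ± 0.27 for Zscan18 (log2, SE, 12 libraries). It was -0.99 ± 0.25 for Midn and -0.86 ± 0.25 for Spsb1. By size, Grip2 ranked 22 among the 12798 genes, Hspa12a 174, C2cd4b 208, Zscan18 423, Midn 483 and Spsb1 753. With limma, 0.0% of the 12798 genes passed an adjusted p of 0.05 for the response difference, 316 had an unadjusted p under 0.05, and limma-voom on reads recovered from TPM called 0 with 307 unadjusted. Zscan18, Midn and Spsb1 are 3 of the 29 genes (0.227%) whose treatments did not overlap in either genotype and lay in opposite directions. Of those 29, 20 (0.156% of all) were lower with PB1046 in mdx and higher in mdx:Utrn+/-, as Zscan18 was, and 9 (0.0703%) had the pattern of Midn and Spsb1.

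**Figure D3:**
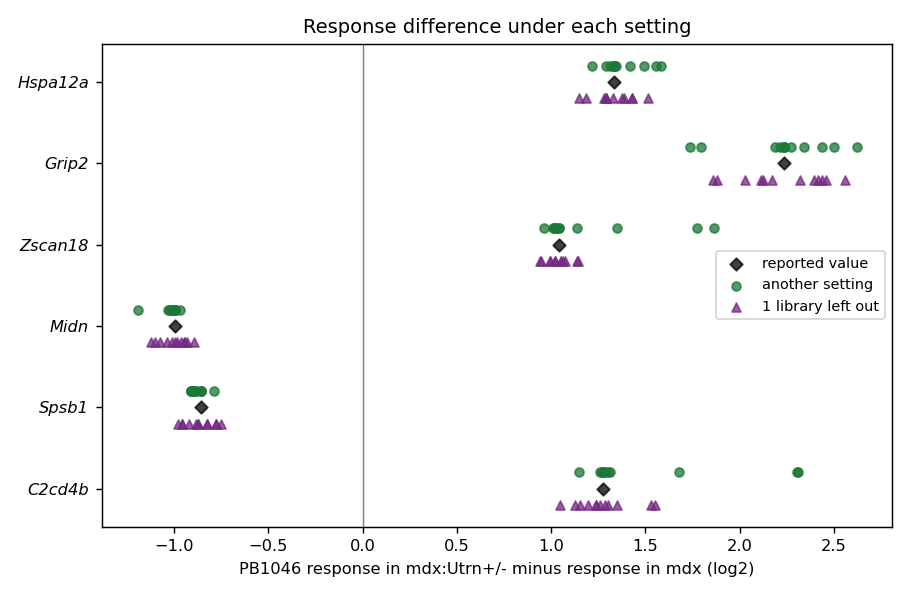
Response difference (x axis, log2, mdx:Utrn+/- minus mdx) of each gene as reported, under each other processing setting and with each of the 12 libraries left out in turn. No point crosses 0, and the widest spread is that of C2cd4b, up to 2.31. The genes were picked on this difference in the same libraries.

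The authors' deposited table gives pairwise comparisons with edgeR, here turned to PB1046 minus saline. In the authors' deposited table Grip2 had a log2 fold change of 1.67 in mdx:Utrn+/- (FDR 0.456) and -0.63 in mdx (FDR 1). In that authors' deposited table C2cd4b had 0.59 in mdx:Utrn+/- and -2.08 in mdx, with an FDR of 1 for both. Among the PB1046 comparisons of the authors' deposited table the value of C2cd4b in mdx was the largest of the 6 genes, where the log2(TPM + 1) scale gave -0.90. For Hspa12a, the authors' deposited table has its lowest p, 8.11e-05, between mdx:Utrn+/- saline and mdx saline (log2 fold change -1.14, FDR 0.707). In the authors' deposited table no member had an FDR under 0.05 in any of the comparisons.

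The genotypes can also be compared within a treatment. Under saline, Hspa12a and Grip2 were lower in mdx:Utrn+/- than in mdx with no overlap, by -1.01 ± 0.22 and -1.26 ± 0.40 (log2, SE, 12 libraries). Midn was higher by 0.53 ± 0.18 in mdx:Utrn+/-, without overlap after scaling. On TPM as deposited the Midn libraries overlapped under saline, and those of Zscan18 did not. Under PB1046, Zscan18 and C2cd4b were higher in mdx:Utrn+/-, by 0.62 ± 0.19 and 1.14 ± 0.28, and Midn and Spsb1 were lower, by -0.46 ± 0.18 and -0.58 ± 0.18, each with no overlap. Genotypes did not overlap for 3 of the 6 genes under saline, against 9.49% of all genes, and for 4 of 6 under PB1046, against 5.74%. These differences contain the contrast the genes were picked on and carry no test. Hspa12a and Grip2 thus separated the genotypes under saline and overlapped under PB1046, whereas C2cd4b, Zscan18 and Spsb1 separated them under PB1046 and overlapped under saline. Midn separated them under both, in opposite directions.

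Averaged over treatments, no member passed the test of the genotype difference. C2cd4b was higher in mdx:Utrn+/- by 0.50 on the log2 scale (95% interval 0.06 to 0.94, limma adjusted p = 0.866, exact two-sided permutation p = 0.135). Hspa12a had -0.34 (95% interval -0.67 to -0.01, limma adjusted p = 0.866, exact permutation p = 0.22). The intervals of Grip2 (-0.14), Spsb1 (-0.15), Zscan18 (0.10) and Midn (0.03) included 0, with exact permutation p-values between 0.4 and 0.855. Exchanging genotypes within each treatment gives 400 relabelings and a smallest possible p of 0.005. The relabelings mix genotypes within a treatment, so the differences the genes were picked on widen their spread. The limma intervals share the spread of the contrast used for picking and may be too narrow. By limma 0.0% of the 12798 genes passed for this contrast, with 434 at an unadjusted p under 0.05, and limma-voom called 0 with 411 unadjusted. The direction for Zscan18 and Midn turned to -0.013 and -0.20 without scaling factors, where the median over all genes was -0.21.

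**Figure D4:**
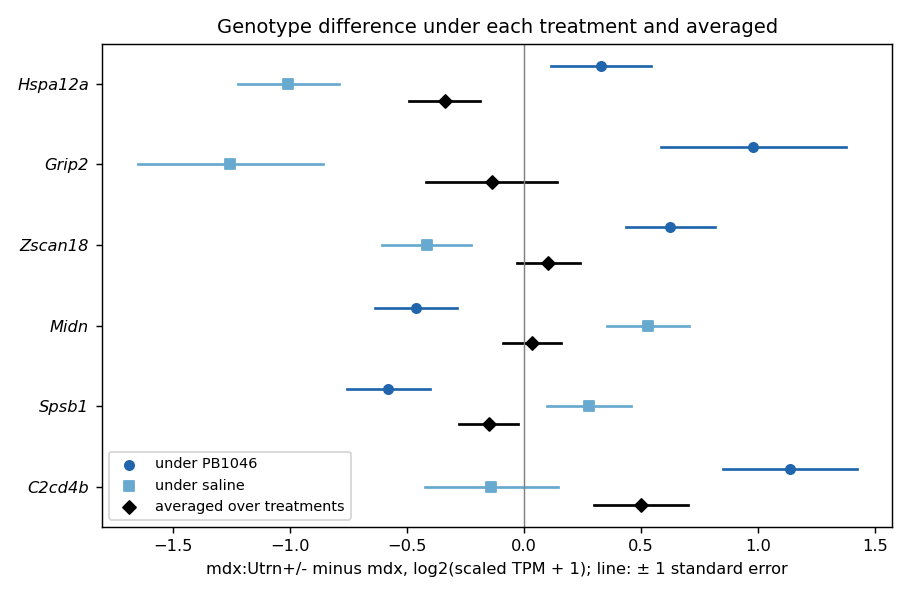
Genotype difference (x axis, mdx:Utrn+/- minus mdx, log2 of scaled TPM + 1) of each gene under PB1046, under saline and averaged over both, with lines of ± 1 standard error. The averaged values lie between -0.34 and 0.50. Each is the mean of the differences under PB1046 and under saline, so it cannot exceed the larger of them in size.

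Relatives and partners of the members, from lists drawn up for each role, had no gene past the limma threshold in any contrast. The lists are described by counts and medians beside the median over all genes, which was 0.04 for the response difference. Of all genes, 54.5% had a higher response in mdx:Utrn+/- than in mdx. Among 14 tested HSP70 genes, the family of Hspa12a, 5 had a higher and 9 a lower response in mdx:Utrn+/- than in mdx, with a median of -0.18. Hspa8, the constitutive cytosolic chaperone and most abundant of them, averaged 1960 ± 93.0 TPM with PB1046 and 1471 ± 393 TPM with saline in mdx:Utrn+/-. In mdx it averaged 1813 ± 352 TPM with PB1046 and 1613 ± 209 TPM with saline (SD, n = 3 each). On the scaled log2 scale the PB1046 response of Hspa8 was 0.30 in mdx:Utrn+/- and -0.03 in mdx, so its direction in mdx depended on the scaling. Of 9 tested partners of GRIP scaffolds 4 were above and 5 below 0, with a median of -0.03. Pick1, a PDZ protein that binds the same receptors, averaged 26.3 ± 3.10 TPM with PB1046 and 28.0 ± 1.51 TPM with saline in mdx:Utrn+/-, and 27.3 ± 1.21 TPM with PB1046 and 28.7 ± 2.32 TPM with saline in mdx (SD, n = 3 each).

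SCAN domain genes had the sign of Zscan18 in 15 of 18 cases, with a median response difference of 0.17. Their median response was 0.09 in mdx:Utrn+/-, where 13 of 18 were higher with PB1046, and -0.19 in mdx, where 15 of 18 were lower. Zkscan3, a repressor of autophagy genes, averaged 39.6 ± 7.95 TPM with PB1046 and 33.1 ± 32.8 TPM with saline in mdx:Utrn+/-, and 33.1 ± 5.25 TPM with PB1046 and 46.7 ± 9.38 TPM with saline in mdx (SD, n = 3 each). The spread of its mdx:Utrn+/- saline libraries was about as large as their mean. Scand1, the most abundant gene of that list, had a response of -0.24 in mdx:Utrn+/- and -0.25 in mdx on the log2 scale. Midnolin carries the proteins of some immediate early genes to the proteasome, but only transcripts are described here. Among 24 tested immediate early genes, 15 had a higher and 9 a lower response in mdx:Utrn+/-, with a median of 0.17. Among all genes 54.5% had a higher one. Junb, a subunit of the AP-1 factor, averaged 121 ± 54.5 TPM with PB1046 and 68.5 ± 12.8 TPM with saline in mdx:Utrn+/-, and 105 ± 28.6 TPM with PB1046 and 157 ± 38.5 TPM with saline in mdx (SD, n = 3 each). The response difference of Junb was 1.32 on the log2 scale. It was 0.53 for Dusp1, 0.18 for Btg2 and 0.37 for Nr4a1, immediate early genes more abundant than Junb. Btg2 was lower with PB1046 in both genotypes, by -0.04 in mdx:Utrn+/- and -0.23 in mdx. The ubiquitin ligase list of Spsb1 split evenly, 5 of 10 on each side, with a median of 0.02. The nearest relatives of C2cd4b were hardly detected: C2cd4a, C2cd4c and C2cd4d summed to at most 0.297 TPM in any library and did not pass the filter.

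Across the 12 libraries some members went together and others did not. Hspa12a and Grip2 had a Pearson r of 0.87 (Spearman rho 0.90), and Hspa12a and Midn had -0.87 (rho -0.90). Zscan18 went with C2cd4b (r 0.73, rho 0.64) and against Spsb1 (r -0.81, rho -0.81). Hspa12a and C2cd4b had an r of only 0.29. The 12 points of each pair share the 4 groups on which the genes were chosen, so these coefficients are descriptions.

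No gene among the 12155 compared had an r over 0.9 with any member. The nearest to Hspa12a were Zfp93 (r 0.89), the mismatch repair gene Msh3 (0.88) and Cep78 (0.86). For Grip2 they included Aldh9a1 (0.898) and Ush1c, which encodes the PDZ protein harmonin (0.898). Tsen54, a tRNA splicing gene (0.86), Gemin5 (0.86) and Wdr24 (0.85) were nearest to Zscan18, and Wdr24 was also nearest to C2cd4b (0.87), ahead of Rpl35 (0.83) and Cuedc2 (0.83). AA465934 (0.85), Dusp18 (0.82) and Cltc, the clathrin heavy chain (0.77), were nearest to Midn, and Pik3r1, a regulatory subunit of PI 3-kinase (0.87), Rnf144b (0.78) and Rhobtb1 (0.78) to Spsb1. The response difference of Pik3r1 was -0.87 and that of Aldh9a1 1.46 on the log2 scale, each with the sign of its member. These genes were picked by their r over the same 12 libraries, so the shared sign follows from the choice.

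Markers of other cell types are given by counts and medians, and no marker of any list passed the limma threshold in any contrast. All 13 macrophage markers tested had a lower response in mdx:Utrn+/- than in mdx, with a median of -0.86. Their response was lower in 12 of 13 in mdx:Utrn+/- (median -0.45) and higher in 13 of 13 in mdx (median 0.42). Summed, they ran from 181 to 417 TPM with PB1046 and 165 to 873 TPM with saline in mdx:Utrn+/-, and from 305 to 882 TPM with PB1046 and 126 to 698 TPM with saline in mdx. The groups overlapped, no listed marker was at 0 throughout, and Adgre1 had no row. With a macrophage score as a term in the fit, chosen after the data were seen, the response difference was 1.79 for Grip2, 1.22 for Hspa12a, 1.02 for Zscan18, 1.30 for C2cd4b, -1.0 for Midn and -0.91 for Spsb1.

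The 15 endothelial markers, relevant for C2cd4b, all had a higher response in mdx:Utrn+/- than in mdx (median 0.49). With PB1046, 15 of 15 were higher in mdx:Utrn+/- (median 0.61) and 6 of 15 in mdx (median -0.03). They summed to 1629 to 5408 TPM with PB1046 and 1323 to 1820 TPM with saline in mdx:Utrn+/-, and to 1087 to 8091 TPM with PB1046 and 1544 to 4188 TPM with saline in mdx. The mdx PB1046 libraries included both the lowest and the highest endothelial sum of the 12. With an endothelial score as a term the response difference of C2cd4b was 1.27, against 1.28 without it. With the same term it was -0.79 for Spsb1, against -0.86 without it, and -0.97 for Midn, against -0.99. Values with this term are not given here for Grip2, Hspa12a and Zscan18. The part of endothelial markers in the values of the 6 genes was not tested. Fibroblast markers had a lower response in mdx:Utrn+/- in 11 of 12 cases (median -0.56). Their sums were 390 to 506 TPM with PB1046 and 302 to 636 TPM with saline in mdx:Utrn+/-, and 667 to 1777 TPM with PB1046 and 358 to 1117 TPM with saline in mdx, and their part in the values of the 6 genes was not tested. Smooth muscle and pericyte markers had a lower response in mdx:Utrn+/- in 9 of 10 cases (median -0.44). Summed, they ran from 207 to 251 TPM with PB1046 and 134 to 299.8 TPM with saline in mdx:Utrn+/-, and from 252 to 450.1 TPM with PB1046 and 175 to 251 TPM with saline in mdx. Erythroid markers had a lower response in all 5 tested (median -1.29), with sums of 72.6 to 784 TPM with PB1046 and 36.2 to 290.4 TPM with saline in mdx:Utrn+/-, and 73.7 to 1098 TPM with PB1046 and 19.1 to 99.3 TPM with saline in mdx. The part of these markers was not tested either. Of the neuron and Schwann markers only 2 passed the filter, and 1 of them had a higher response in mdx:Utrn+/-. With Rn45s as a term the response difference was 2.62 for Grip2, 1.58 for Hspa12a and -1.19 for Midn, each larger in size than without it. With the same term it was 1.31 for C2cd4b, -0.90 for Spsb1 and 0.96 for Zscan18, the last smaller than without it.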

How the data were processed

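RNA of isolated cardiomyocytes was sequenced in 12 libraries with a stranded poly-A kit, per the labels' protocols. The authors deposited 1 table of 18530 genes on mm10. Its name speaks of raw counts, but the deposited values are TPM that sum to 1000000 in every library. It also holds the authors' log2 fold changes and log2 CPM, a likelihood ratio score and p-values with FDR from 6 group comparisons, made with edgeR per the submitters' processing notes, with no version given. By comparison with the deposited TPM, the authors' fold changes run second named group minus first. No source used here names the aligner, counter or gene lengths.

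The steps between low TPM values gave back whole reads for 100% of genes within 0.1 reads. These reads give the depth and served limma-voom. The main fit was limma 3.58.1 in R 4.3.3 with trend and robust settings on log2(TPM / trimmed-mean factor + 1), with factors of 0.842 to 1.32, a mean per group and Benjamini-Hochberg adjustment over the 12798 genes that reached 1 TPM in 3 or more libraries. It left 8 residual degrees of freedom. The fit was also run on simulated data in which only genotype differences were introduced. That run does not show whether a true response difference would be found.

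The 6 genes and all lists were chosen with earlier results of these data known. Besides the members, the text names for each of them the 3 genes with the highest r over the libraries, leaving out predicted genes and 1 gene that is not reported here, and examples from the 4 most abundant genes of each list, a choice made with their values in view. Utrn, Rn45s and single markers are named where a value turns on them. Alternatives were other pseudocounts, filters and scalings, limma-voom, a replicate block, Rn45s, endothelial and macrophage scores as terms (the last chosen after seeing the data), and leaving out libraries.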

Additional observations from a re-analysis of the deposited data

Results flagged for a closer look

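For Zscan18, Midn and Spsb1 every PB1046 library lay on one side of every saline library in mdx:Utrn+/- and on the other side in mdx. For Spsb1 in mdx the gap was narrow after scaling, between 4.013 and 4.017 on the log2 scale. The response difference, mdx:Utrn+/- minus mdx, was 1.04 for Zscan18, -0.99 for Midn and -0.86 for Spsb1 on the log2 scale. The difference was not tested, because these genes were picked on it, and 29 of 12798 genes (0.227%) had such a pattern. That share was not set against the share that random group labels would give, so it does not show the pattern to be rare. With limma 0.0% of genes passed an adjusted p of 0.05 for the response difference.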

How the results depend on the processing

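The members were picked on the response difference in these libraries, so a kept sign is described and nothing is read from it. For each member that difference kept its sign under every other setting that gave a value and with each of the 12 libraries left out. The number of genes called stayed 0 under all of them for both PB1046 responses and for the averaged genotype difference. For the response difference it ranged from 0 to 1 with a library left out: without mdx:Utrn+/- saline replicate 3, 1 gene passed, the pseudogene Tmem181b-ps (log2 2.54, limma adjusted p = 0.0302), and 1291 genes had an unadjusted p under 0.05. The averaged genotype difference reversed for Zscan18 (-0.013) and Midn (-0.20) without scaling factors, for Midn without mdx saline replicate 2 (-0.012) or mdx:Utrn+/- saline replicate 3 (-0.015), and for Grip2 without mdx:Utrn+/- PB1046 replicate 3 (0.023) or mdx:Utrn+/- saline replicate 1 (0.051). With a library left out it ranged from -0.015 to 0.10 for Midn and from -0.31 to 0.051 for Grip2. The cause was not tested. Without scaling the median response of all genes was 0.15 in mdx:Utrn+/- and 0.14 in mdx.

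The scarce genes depended on the pseudocount: at 0.1 the response difference was 2.31 for C2cd4b and 1.77 for Zscan18. A filter of 5 TPM removed Zscan18 and C2cd4b. With the replicate number as a block, 0 genes were called, with 402 unadjusted for the response difference, and the averaged genotype difference had 814. The numbers do not pair the libraries: r between same-numbered libraries ran from -0.45 to 0.49, and 3 of 12 libraries were closest to their own number. Depth limits C2cd4b and Zscan18 most.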
